A study of Mus musculus with 24 samples.

Results

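Endothelial cells (ECs) that line the vessels of different organs carry different sets of transcripts, and part of this difference can be lost once the cells are taken from the organ and grown on plastic. Liver sinusoidal endothelium is fenestrated, takes up waste molecules through stabilin receptors and depends on the transcription factor Gata4. Lung capillary endothelium is continuous, carries angiotensin converting enzyme on its surface and depends on the transcription factor Foxf1. The comparison described here asks which transcripts still differed between cultured ECs from lung and from liver once both carried the same lentiviral transgene.

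Akt-LECs were lung ECs and Akt-liver ECs were liver ECs, both isolated from adult C57BL/6J mice with beads against CD31, and both cultured after transduction with a lentivirus that encodes Akt1 made constitutively active by a myristoylation signal. The promoter of the vector was PGK, which is active in most cell types. The transduced cells were purified again by the surface proteins VEcad and CD31 before RNA was collected. Age is given only as adult, sex is not given, and no culture without Akt from either organ was analysed here, so the effect of Akt within an organ cannot be told apart from that of culture. Each group had 3 libraries, so that 6 of the 24 libraries of the study were compared. LSECs, which are ECs purified from liver by FACS without culture and without a virus, gave 3 further libraries as a reference. RNA levels are given as FPKM, fragments per kilobase of transcript scaled to the size of the library, and differences as log2 fold changes of FPKM + 1 from Akt-liver EC to Akt-LEC, so that a positive value is higher in lung cells. The addition of 1 understates the change of genes at low level. Of 22282 genes, 13869 had a mean FPKM of at least 1 over the 6 libraries and were tested. In bulk RNA, fewer cells with a transcript and less of it per cell cannot be told apart.

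The labelled cell type was checked first. All 30 pan-endothelial genes were above 0 in each of the 6 cultures. VE-cadherin (Cdh5), the adhesion molecule of endothelial junctions, had an FPKM of 2591, 4131 and 2295 in Akt-liver EC 1, 2 and 3 and of 1397, 2074 and 3486 in Akt-LEC 1, 2 and 3. Pecam1, which encodes CD31, had 1576, 2648 and 1854 in liver and 1077, 2417 and 2984 in lung cultures. The Ets factors Erg (176 to 583) and Fli1 (139 to 426) and the VEGF receptor Kdr (303 to 1430) were also present in each culture, and both organs overlapped for all 5 genes. Akt1 itself had 892, 559 and 656 in liver and 798, 1124 and 1266 in lung cultures. These values include the native gene, overlap between the organs and were not called different (log2 fold change 0.60, limma adjusted p = 0.995).

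Both replicate 1 libraries stood apart from the others and carried transcripts of other cell types. Their file headers hold consecutive numbers, whereas the other 4 headers hold short words. Col1a1, the main collagen of fibroblasts, had an FPKM of 556 in Akt-liver EC 1 and 1065 in Akt-LEC 1, and between 0 and 5.66 in the other 4 cultures. Smooth muscle actin (Acta2) was 683 and 810 in these libraries and between 4.97 and 52.7 in the others. The summed FPKM of 15 leukocyte and macrophage markers was 1716 and 1986, against 0 to 24.9, with Ptprc, Tyrobp and C1qa listed at 0 in the other 4 cultures. The sum of 7 cholangiocyte markers was 3055 and 6067, against 20.9 to 40.4. Of these sums Spp1, which macrophages also make, gave 2423 and 5928, and the duct keratin gene Krt7 was 269 in Akt-liver EC 1, 55.1 in Akt-LEC 1 and listed at 0 in the others. Mesothelial markers summed to 1733 in Akt-liver EC 1, 246 in Akt-LEC 1 and 2.56 to 47.1 in the others. The sum of 16 fibroblast and stellate cell markers was between 2816 and 2912 in liver cultures and was 5380, 279 and 474 in lung cultures. In Akt-liver EC 2 and 3, however, 6 and 7 of these markers were listed at 0. Col1a1, Col1a2 and Col3a1 were at most 5.66 there and Dcn was 98.4 and 391, so the collagen genes did not make the sum. Of the defining epithelial genes, Epcam was 44.7 and 5.31 in the replicate 1 libraries and listed at 0 in the others, Alb was 30.3 in Akt-liver EC 1 and listed at 0 in the others with Ttr, Apoa1 and Apob, and Sftpc was listed at 0 in all 6. Of the hepatocyte sum of 294 in Akt-LEC 1, the transferrin gene Trf gave 264, and 15 of 18 markers were listed at 0. The pan-endothelial sum was 20913 in Akt-liver EC 1 and 13078 in Akt-LEC 1, below the 29327 to 31910 of the other 4 cultures.

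**Figure D1:**
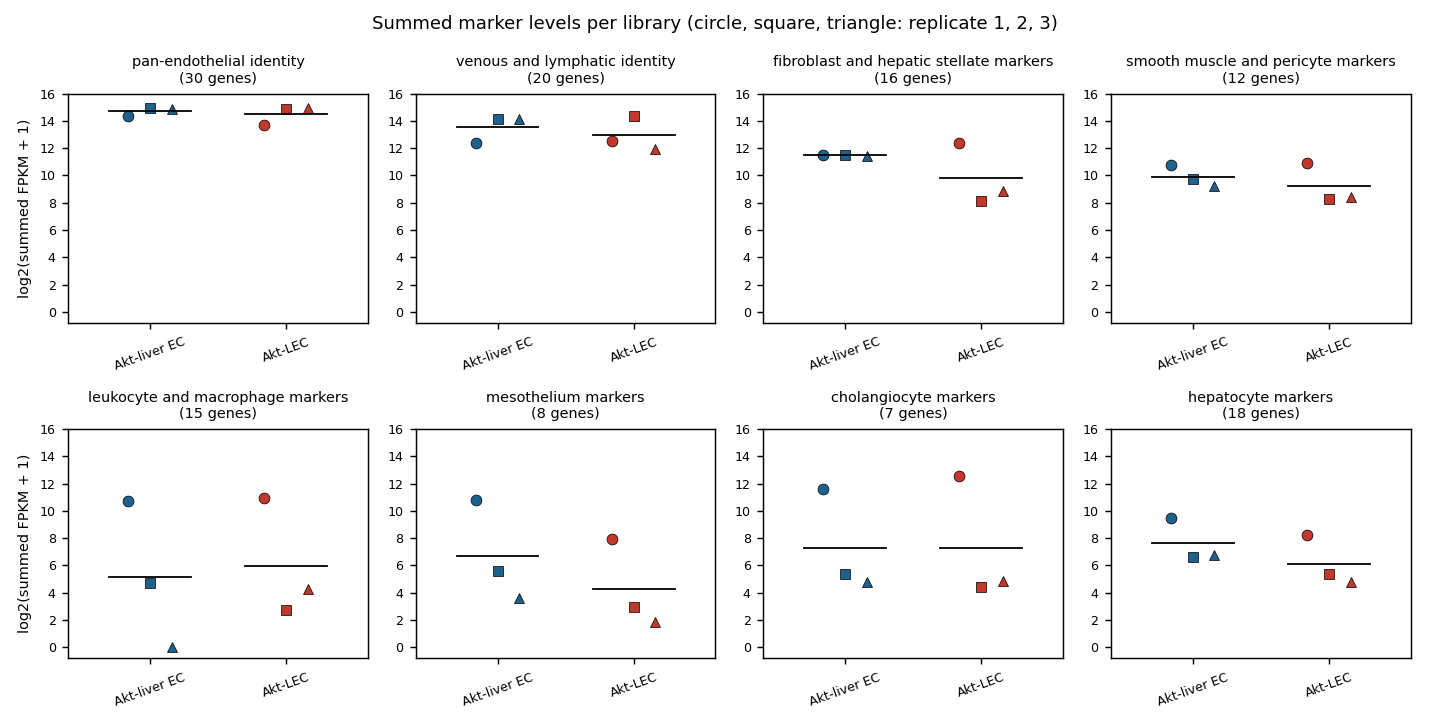
Summed FPKM of marker genes in each of the 6 cultures, on a log2(sum + 1) axis, with 1 panel per list. Points are libraries (blue Akt-liver EC, red Akt-LEC; circle, square and triangle are replicates 1, 2 and 3) and lines are the means of the log2 values; both circles lie above the other points of their group for leukocyte, mesothelium, cholangiocyte and hepatocyte markers and lowest for pan-endothelial genes, although in Akt-LEC 1 the cholangiocyte sum of 6067 is mostly Spp1 (5928) and the hepatocyte sum of 294 mostly Trf (264).

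Lymphatic and sex-linked transcripts also divided the libraries across the organs. Prox1, the transcription factor that sets lymphatic identity, had an FPKM of 39.3, 683 and 703 in liver and 111, 433 and 0.79 in lung cultures, and Mmrn1, a further lymphatic gene, had 131, 2826 and 3363 in liver and 482, 3662 and 13.1 in lung. Both genes were thus high in Akt-liver EC 2 and 3 and in Akt-LEC 2, and lowest in Akt-LEC 3. The Y-linked gene Ddx3y was between 128 and 150 in Akt-liver EC 1 and 2 and Akt-LEC 1 and was listed at 0 in the other 3 cultures. Xist, which is transcribed from the inactive X chromosome, was between 89.2 and 207 in those 3 and between 0 and 0.13 where Ddx3y was present. The called genes, the genes named for the largest differences where a call changed, the list medians and the distances are therefore also given without both replicate 1 libraries, an alternative that was chosen after seeing the data and leaves 2 libraries per organ. The parts of other cell types, of lymphatic cells and of sex in the results were not tested beyond the values given here.

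Across the transcriptome the cultures were not arranged by organ. To compare libraries, the Pearson correlation of their log2(FPKM + 1) values was subtracted from 1 to give a distance. Its mean was 0.135 between organs and 0.144 within an organ, so that the former was not larger (difference -0.00968, p = 0.8 in an exact permutation test, two-sided, which cannot go below 0.1 with 3 libraries per group). The smallest distance was that of Akt-liver EC 2 and 3, at 0.0604, and the next was that of Akt-liver EC 1 and Akt-LEC 1, at 0.0689. Akt-LEC 2 lay nearer to Akt-liver EC 3 (0.0907) and Akt-liver EC 2 (0.0940) than to Akt-LEC 3 (0.114) or Akt-LEC 1 (0.201). The organ accounted for 16.6% of the sum of squares between the 6 libraries, replicate 1 against replicates 2 and 3 for 44.4%, and the presence of Ddx3y above 10 FPKM in 3 of the 6 for 28.6%. Each share was computed alone, and both replicate 1 libraries are among the 3 with Ddx3y, so the shares overlap and cannot be added. Any division of 6 libraries into 2 groups takes some share, and those by replicate 1 and Ddx3y were chosen after seeing the data, unlike that by organ. Without both replicate 1 libraries the difference between organs and within an organ was 0.0272, larger between organs.

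**Figure D2:**
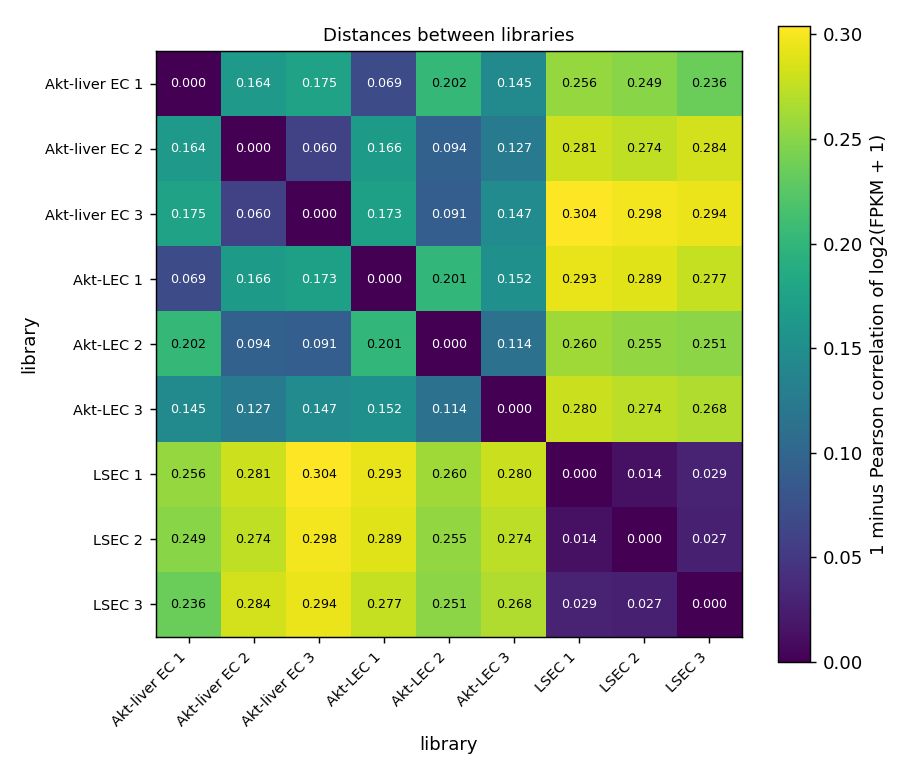
Distance between each pair of libraries (both axes), given by 1 minus their Pearson correlation, with log2(FPKM + 1) of the 13869 tested genes as input. Akt-liver EC 1 and Akt-LEC 1 are 0.0689 apart, less than either is from any other library, and the 3 LSEC libraries lie between 0.236 and 0.304 from each culture.

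With 1 limma fit over all 24 libraries and their 8 groups, 0 of 13869 genes (0%) were called higher in Akt-LECs and 2 (0.0144%) were called higher in Akt-liver ECs, where a call needs a log2 fold change past 1 and an adjusted p under 0.05. The 2 genes were Nr5a2 and Rec114. Before adjustment, 651 genes (4.69%) had a p below 0.05, of which 172 were past the fold threshold towards lung and 264 towards liver. That share is near the one such a threshold gives without any difference between organs. All 3 lung libraries lay above all 3 liver libraries for 407 genes (2.93%), and the reverse held for 659 (4.75%). When each library was scaled by its median ratio to the mean of all libraries, these counts were 530 and 511. In an exact two-sided permutation test, complete separation of 3 from 3 libraries has a p of 0.1. Many genes would therefore lie apart without any difference between organs, and absence of overlap alone does not show one. A fit of the 6 libraries alone called 1 gene higher in lung (0.00721%), Ramp3, and 0 in liver (0%), with 102 and 214 genes past an unadjusted p of 0.05 and the fold threshold. Without both replicate 1 libraries, the fit of the remaining libraries called 13 genes higher in lung and 28 higher in liver, among them Nr5a2 and Rec114.

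Nr5a2 encodes a nuclear receptor, also named liver receptor homolog, that controls genes of bile acid and cholesterol metabolism. It lies on the minus strand of mm9 at chr1:138740161-138857004. Its FPKM was 37.4, 12.1 and 29.3 in Akt-liver EC 1, 2 and 3 and 5.92, 0.46 and 0 in Akt-LEC 1, 2 and 3. Every liver culture was above every lung culture, and the highest lung value was that of replicate 1. LSECs had 84.4, 66.4 and 81.8, above all cultures. The mean was 26.3 ± 13.0 (SD, n = 3) in Akt-liver ECs and 2.13 ± 3.29 (SD, n = 3) in Akt-LECs, a log2 fold change of -3.52 (standard error 0.53, limma adjusted p = 0.0194). The difference was -2.47 between both replicate 1 libraries and -4.04 between the means of the other libraries. In the fit of the 6 libraries alone the standard error was 0.85 and the adjusted p by limma was 0.9999. In the 15 libraries of the other 5 groups of the study Nr5a2 was at most 0.63, and these groups enter the spread of the fit. Nr5a2 lost its call without Akt-liver EC 3, Akt-LEC 2 or Akt-LEC 3 (limma adjusted p between 0.153 and 0.21), with Ddx3y as a term (limma adjusted p = 0.0553), at a pseudocount of 0.1 (limma adjusted p = 0.445) and among genes with a mean of at least 10 FPKM (limma adjusted p = 0.148).

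Rec114 encodes a protein that is needed for the DNA breaks of meiosis. Its FPKM was 3.57, 10.7 and 30.2 in liver cultures, was listed at 0 in all 3 lung cultures and was 13.9, 12.4 and 19.0 in LSECs. The log2 fold change of -3.57 depends on the 1 added to each value (standard error 0.52, limma adjusted p = 0.0194). The difference was -2.19 between both replicate 1 libraries and -4.26 between the means of the others. In the fit of the 6 libraries alone the adjusted p by limma was 0.9999, and in the 15 libraries of other groups Rec114 was at most 2.03. Rec114 lost its call without Akt-liver EC 2, Akt-liver EC 3, Akt-LEC 2 or Akt-LEC 3 (limma adjusted p between 0.0555 and 0.168) and at a pseudocount of 10 (limma adjusted p = 0.115).

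The starts of these genes, and of Ramp3 described below, are shown because they are the only genes called in either fit. The sequences run from 250 bases before to 50 bases after a start and are those of RefSeq on GRCm38.p6, a later build than that of the FPKM values. Capitals mark AGATAA or its complement TTATCT, letters bound by GATA factors, searched on both strands. Of 32851 such windows in the mouse table, 11.2% hold at least 1. Nr5a2 has 2 starts, at chr1:136960399-136960698 and chr1:136953581-136953880 on the minus strand. The window of Rec114 is chr9:58741510-58741809 on the minus strand, and that of Ramp3 is chr11:6658283-6658582 on the plus strand.
Nr5a2, upstream start: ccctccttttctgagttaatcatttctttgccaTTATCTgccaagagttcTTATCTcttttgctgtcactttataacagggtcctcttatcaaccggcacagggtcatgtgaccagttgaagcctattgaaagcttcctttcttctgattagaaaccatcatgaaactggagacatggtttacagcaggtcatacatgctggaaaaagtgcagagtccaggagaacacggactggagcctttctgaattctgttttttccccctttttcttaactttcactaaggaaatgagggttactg
Nr5a2, downstream start: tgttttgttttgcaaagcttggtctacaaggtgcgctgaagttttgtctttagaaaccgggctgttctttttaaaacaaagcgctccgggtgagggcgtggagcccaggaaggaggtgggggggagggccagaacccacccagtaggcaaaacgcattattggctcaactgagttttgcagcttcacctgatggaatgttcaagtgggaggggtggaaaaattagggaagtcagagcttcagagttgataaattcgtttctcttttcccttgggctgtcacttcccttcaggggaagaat
Rec114: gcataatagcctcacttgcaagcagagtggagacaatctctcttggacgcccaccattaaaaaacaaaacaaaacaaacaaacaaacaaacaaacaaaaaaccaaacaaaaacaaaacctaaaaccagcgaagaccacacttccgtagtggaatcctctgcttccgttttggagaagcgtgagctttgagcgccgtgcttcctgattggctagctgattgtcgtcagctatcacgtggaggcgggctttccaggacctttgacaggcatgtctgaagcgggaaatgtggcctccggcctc
Ramp3: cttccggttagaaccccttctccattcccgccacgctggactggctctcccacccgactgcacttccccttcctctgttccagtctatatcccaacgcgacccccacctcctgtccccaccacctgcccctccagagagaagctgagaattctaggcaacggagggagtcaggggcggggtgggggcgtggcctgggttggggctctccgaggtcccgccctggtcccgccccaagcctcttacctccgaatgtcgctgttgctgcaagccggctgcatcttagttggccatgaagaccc
The upstream start of Nr5a2 holds 2 of these motifs and the other 3 windows hold 0. Of the 2 Nr5a2 transcripts in the files, NM_001159769 carried most of the level, with 37.4, 11.8 and 29.2 in liver and 5.35, 0.27 and 0 in lung cultures, whereas NM_030676 stayed between 0 and 0.57. In Akt-LEC 2 both were low, at 0.27 and 0.19. The table of starts does not say which of them belongs to which transcript.

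Ramp3 was the gene with the clearest separation in the opposite direction. It encodes a protein that turns the calcitonin receptor-like receptor into a receptor for adrenomedullin, a peptide that acts on vessels. It lies on the plus strand of mm9 at chr11:6558524-6577478 and overlaps the gene model Gm11978 on the other strand, from which it cannot be separated in libraries that do not keep strand. Its FPKM was 61.8, 68.6 and 51.4 in liver and 638, 617 and 730 in lung cultures, with no overlap and little spread within an organ. LSECs had 44.1, 45.6 and 48.0. In the 15 libraries of the other 5 groups Ramp3 was between 3.02 and 751, so its level was not particular to lung cultures. The mean was 662 ± 60.0 (SD, n = 3) in Akt-LECs and 60.6 ± 8.63 (SD, n = 3) in Akt-liver ECs, which is 10.9-fold. The log2 fold change was 3.43, with a standard error of 0.19 and an adjusted p of 0.0149 in the limma fit of the 6 libraries. In the fit of all 24 libraries its standard error was 0.83 and it was not called (limma adjusted p = 0.531). The difference was 3.35 between both replicate 1 libraries and 3.48 between the means of the others, and without the replicate 1 libraries the adjusted p by limma was 0.299.

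The genes described next were named after their values were seen, as those with the largest fold changes among genes without overlap, and none passed the test. Towards lung, von Willebrand factor (Vwf), the carrier of factor VIII that captures platelets, had an FPKM of 1.19, 0.26 and 0.53 in liver and 24.7, 89.8 and 115 in lung cultures. LSECs had 23.8, 23.2 and 45.2. Its log2 fold change was 5.32 (standard error 1.62, limma adjusted p = 0.889). The gap junction gene Gja5, typical of arterial endothelium, had 3.20, 0.69 and 0 in liver and 5.26, 97.6 and 331 in lung cultures. Both replicate 1 libraries were close for Gja5, and without them its log2 fold change was 7.12 (limma adjusted p = 0.0069). Alox5ap, which is needed for leukotriene synthesis, had 19.9, 0 and 0 in liver and 44.8, 80.5 and 160 in lung cultures, and without the replicate 1 libraries its adjusted p by limma was 0.0370. In the fit of the 6 libraries alone the adjusted p by limma of Gja5 and of Alox5ap was 0.9999. Ly6c1, a surface protein of capillary endothelium and monocytes, had 23.9, 12.9 and 2.85 in liver and 49.3, 387 and 723 in lung cultures. Plac8 was 90.2, 71.9 and 40.9 in liver and 619, 440 and 6474 in lung, the last in Akt-LEC 3. In the 15 libraries of other groups Vwf reached 2120, Alox5ap 480, Ly6c1 5830 and Plac8 14491, above every lung culture. Gja5 reached only 21.1 there. Jam2, Ly6c2, Alpl, Fam181b and the chemerin receptor gene Cmklr1 complete the 10 largest, with log2 fold changes between 3.74 and 5.09. Ly6c1 and Ly6c2 are near-identical copies, so the division of reads between them is uncertain.

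Towards liver, Tfpi2, an inhibitor of plasmin and other serine proteases, had an FPKM of 552, 277 and 362 in liver and 65, 7.49 and 9.19 in lung cultures, with 162, 118 and 191 in LSECs. Its log2 fold change was -4.42 (standard error 1.32, limma adjusted p = 0.887). Pcbd1, an enzyme that recycles tetrahydrobiopterin, had 49.8, 43.9 and 68.1 in liver, 7.59, 0 and 3.08 in lung cultures and 76.7, 52.5 and 210 in LSECs. Igf2, a fetal growth factor, had 390, 230 and 1054 in liver and 36.2, 145 and 6.68 in lung cultures, and was between 1.45 and 2.66 in LSECs. Gm525 had 82.2, 115 and 242 in liver and 42.0, 3.98 and 0 in lung cultures, and Serinc2 had 123, 294 and 101 in liver and 26.7, 3.66 and 0 in lung. Both were near or at 0 in LSECs, so that these genes separated the cultures without being high in uncultured liver endothelium. Their adjusted p by limma was 0.0757, and without the replicate 1 libraries, with 2 left per organ, it was 5.37e-06 and 0.0021. In the fit of the 6 libraries alone it was 0.9999 for both, with standard errors of 1.33 and 1.19 against 0.80 and 0.89. Gm525 was listed at 0 in the 15 libraries of the other 5 groups, which enter the spread of the larger fit, whereas Serinc2 reached 36.0 there. Ogdhl, Fsd2 and the pseudogene Cyp4b1-ps2 also had an adjusted p by limma between 0.0757 and 0.0968, and of 0.9999 in the fit of the 6 libraries. Cyp4b1-ps2 shares sequence with Cyp4b1, which had 297, 331 and 801 in liver and 155, 39.9 and 0 in lung cultures, and is uncertain for this reason. Kcne3, Ndn, Nppb and Gm6644 complete the 10 largest, with log2 fold changes between -4.96 and -3.78.

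**Figure D3:**
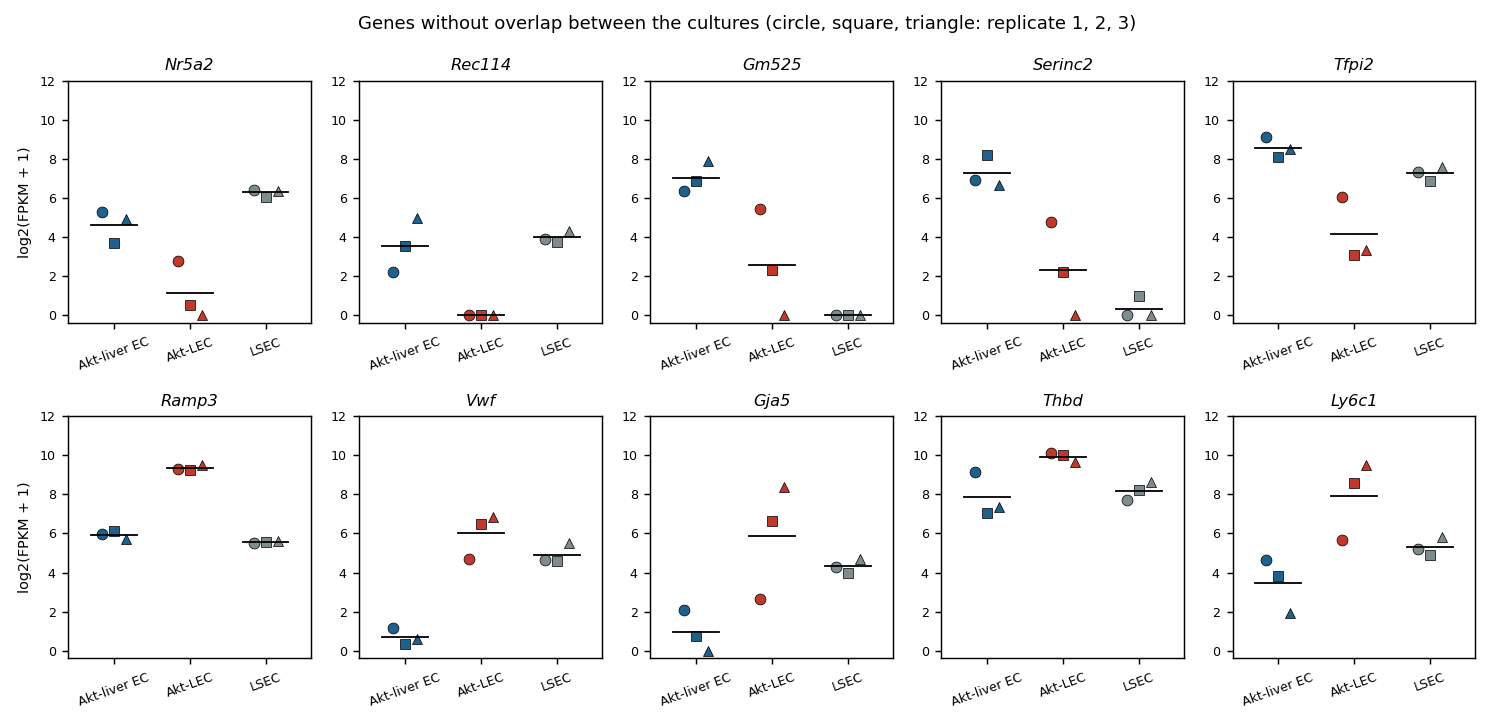
FPKM of 10 genes without overlap between the cultures, as log2(FPKM + 1), for each library of Akt-liver ECs (blue), Akt-LECs (red) and LSECs (grey), with lines at group means. Nr5a2, Rec114, Gm525, Serinc2 and Tfpi2 lie higher in each liver culture, Ramp3, Vwf, Gja5, Thbd and Ly6c1 higher in each lung culture, and Ramp3 has the narrowest spread within an organ.

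The 32 listed genes of liver sinusoidal endothelium summed to 11508 to 22025 FPKM in liver and 6239 to 17211 in lung cultures, against 96755 to 116088 in LSECs. Of 31 genes tested, 0 were called, 2 lay higher in each liver culture (6.45%, beside 4.75% of all genes) and 1 higher in each lung culture (3.23%, beside 2.93%), shares near those of all genes. Their median log2 fold change was -0.79, beside -0.05 over all genes tested, and 23 of the 31 were negative. Without both replicate 1 libraries the median was -0.53. Stab2, a receptor that clears hyaluronan, had an FPKM of 173, 54.4 and 58.3 in liver and 17.9, 21.9 and 2.97 in lung cultures, against 2213, 2140 and 1863 in LSECs. The groups did not overlap, but the difference was not called (log2 fold change -2.79, limma adjusted p = 0.995). Stab1 had 729, 3563 and 3935 in liver and 806, 1092 and 928 in lung cultures, which overlapped through Akt-liver EC 1. Gata4, the regulator of sinusoidal fate, had 214, 11.9 and 9.20 in liver and 13.1, 8.91 and 2.24 in lung cultures, all below the 426 to 543 of LSECs. Akt-liver EC 1, the highest of them, also held mesothelial markers (1733 FPKM in sum), and Gata4 reached 340 in the 15 libraries of other groups. Clec4g, a lectin of sinusoidal ECs, was between 0 and 6.53 in the cultures and between 21133 and 31959 in LSECs. Lyve1 (1192 to 7229 in the cultures) and Maf (0 to 384) overlapped between the organs. In Akt-liver EC 3, Lyve1 (7229), Stab1 (3935), Sgk1 (3625) and Ctsl (2809) were the largest parts of the list sum of 22025. Lyve1 and Flt4 were highest in Akt-liver EC 2 and 3 and Akt-LEC 2 and lowest in Akt-LEC 3, as were the lymphatic genes Prox1 and Mmrn1. The part of lymphatic cells in the list sums was not tested. The lysosomal protease gene Ctsl was higher in each liver culture, and the transcription factor gene Mecom was higher in each lung culture.

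The 35 genes of lung capillary endothelium found summed to 9325 to 18868 FPKM in lung and 9566 to 11722 in liver cultures. Their sum was 33947 to 39361 in LSECs, higher than in any culture, so the list is not particular to lung. Of 33 genes of lung capillary endothelium tested, 0 were called, 5 lay higher in each lung culture (Ace, Thbd, Prx, Aplnr and Ly6c1; 15.2%, beside 2.93% of all genes) and 1 higher in each liver culture (Cyp4b1; 3.03%, beside 4.75%), with a median log2 fold change of 0.79 and 24 positive values. Without both replicate 1 libraries the median was 0.93 and Ly6a, a surface protein of capillary ECs and stem cells, was called. Ly6a had 714, 48.8 and 11.4 in liver and 609, 1740 and 4169 in lung cultures, which overlapped through the replicate 1 libraries (log2 fold change without them 6.76, limma adjusted p = 0.0313, and 0.808 with them). Its adjusted p by limma was 0.9999 in the fit of the 6 libraries alone. Angiotensin converting enzyme (Ace), which activates angiotensin, had an FPKM of 5.87, 13.9 and 2.96 in liver and 19.7, 20.8 and 60.4 in lung cultures (log2 fold change 2.03, limma adjusted p = 0.995). Thrombomodulin (Thbd), which turns thrombin into an anticoagulant, had 572, 133 and 163 in liver and 1110, 1025 and 822 in lung cultures. The groups did not overlap, and the highest liver value was that of Akt-liver EC 1. Foxf1 had 12.9, 66.4 and 174 in liver and 93.3, 35.2 and 104 in lung cultures, and did not separate the organs. Tbx2 and Tbx3, T-box factors of lung mesenchyme and endothelium, were highest among the cultures in Akt-LEC 1 at 106 and 48.5 and between 0 and 11.4 in Akt-LEC 2 and 3. In LSECs Tbx2 was 87.3 to 125 and Ly6a 2768 to 4693, whereas Tbx3 was 0.65 to 2.61 and Ace 7.42 to 14.8. Car4, a marker of lung aerocytes, was between 0 and 10.7 in all cultures.

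Transcription factors that mark position in the body were compared next. Of 23 Hox genes tested, 3 lay higher in each lung culture (13%, beside 2.93% of all genes) and 0 in each liver culture (0%, beside 4.75%), with 0 called and a median log2 fold change of 0.35, or 0.20 without both replicate 1 libraries. Hoxa5, which is needed for lung development, had an FPKM of 39.2, 29.0 and 24.7 in liver and 159, 39.4 and 101 in lung cultures (log2 fold change 1.47, standard error 0.68, limma adjusted p = 0.995). Akt-LEC 2 was nearly level with Akt-liver EC 1, so that the absence of overlap rests on a small gap. Hoxa2 had 8.60, 1.93 and 1.13 in liver and 15.5, 8.61 and 14.5 in lung cultures, where Akt-LEC 2 was likewise level with Akt-liver EC 1, and Hoxa6 had 3.69, 6.81 and 6.08 in liver and 13.1, 8.24 and 10.4 in lung. These 3 genes lie in the Hoxa cluster and each overlaps a gene model of Hoxa3. Hoxa5 and Hoxa6 also overlap 2700086A05Rik on the other strand, so the 3 are not independent observations. The genes of the Hoxb and Hoxd clusters overlapped between the organs. Of 57 other positional factors, 2 lay higher in each lung culture (Mecom and Msx1) and 3 in each liver culture (Hhex, Msx2 and Sox4), which are 3.51% and 5.26% beside 2.93% and 4.75% of all genes. Their median was 0.12, and 0 without both replicate 1 libraries. Hhex, which is needed for liver formation, had 238, 341 and 384 in liver and 155, 138 and 231 in lung cultures (log2 fold change -0.88, limma adjusted p = 1).

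**Figure D4:**
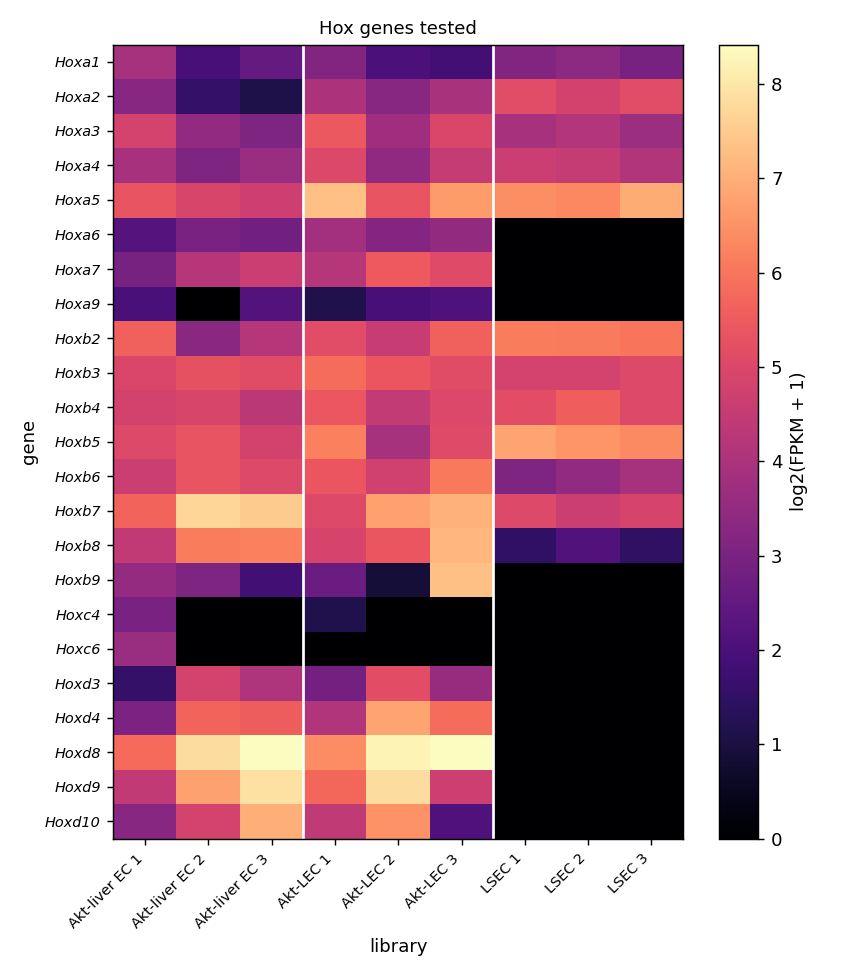
log2(FPKM + 1) of the 23 Hox genes tested (rows) in each library (columns). Hoxa2, Hoxa5 and Hoxa6 are higher in each lung culture, though Hoxa2 (8.61 against 8.60) and Hoxa5 (39.4 against 39.2) only barely in Akt-LEC 2 against Akt-liver EC 1, and 7 genes of the Hoxa and Hoxd clusters are above 1 FPKM in all 6 cultures and listed at 0 in the 3 LSEC libraries.

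Of 19 genes of arterial identity, 0 were called, 2 lay higher in each lung culture (Gja5 and Sema3g) and 2 in each liver culture (Unc5b and Jag2), each 10.5%, beside 2.93% and 4.75% of all genes. Their median was 0.93 and was 1.69 without both replicate 1 libraries, where Gja5 was called. The arterial ligand Efnb2 overlapped, with 161, 72.5 and 25.7 in liver and 126, 123 and 194 in lung cultures. Of 20 venous and lymphatic genes, again with 0 called, 3 lay higher in each lung culture (Aplnr, Vwf and Lrg1; 15%, beside 2.93% of all genes) and 0 in each liver culture (0%, beside 4.75%). The median had the opposite sign, at -0.68, and was -1.02 without both replicate 1 libraries. The venous factor Nr2f2 was 181, 981 and 704 in liver and 289, 623 and 280 in lung cultures. Of 30 pan-endothelial genes, Flt1 and Vwf lay higher in each lung culture and Eng higher in each liver culture (6.67% and 3.33%, beside 2.93% and 4.75% of all genes). The median was -0.03, and 0.27 without both replicate 1 libraries.

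Genes for the exchange of fluid, lipids and clotting factors gave 0 calls. Of 24 genes of vascular tone and haemostasis, 4 lay higher in each lung culture (Ace, Thbd, Vwf and Gja5) and 1 in each liver culture (Tfpi2), which are 16.7% and 4.17% beside 2.93% and 4.75% of all genes. All 4 were also counted above, Ace and Thbd as lung capillary, Gja5 as arterial and Vwf as venous and pan-endothelial genes. Aplnr was likewise counted as a lung capillary and a venous gene, so the shares of these lists are not independent. The median was 0.78, and 0.72 without both replicate 1 libraries. F8, the clotting factor that liver sinusoidal ECs secrete, had 54.5, 192 and 211 in liver and 3.98, 40.8 and 115 in lung cultures, which overlapped, and 1433 to 2361 in LSECs. Of 25 genes of fenestrae, caveolae and lipid handling, Scarb1, the receptor for high density lipoprotein, lay higher in each liver culture, at 399, 205 and 233 against 161, 58.1 and 185. This was 4% of the list, beside 4.75% of all genes, and the median was 0.20, or 0.35 without both replicate 1 libraries. Plvap, which forms the diaphragms of fenestrae, was 1829, 3842 and 5953 in liver and 1084, 3708 and 429 in lung cultures, and Cav1, the coat protein of caveolae, was 1202, 1781 and 1934 in liver and 1465, 2092 and 4386 in lung. Both overlapped.

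Of 40 angiocrine factors, the signals by which endothelium acts on the cells of an organ, 0 were called and Jag2 alone lay higher in each liver culture (2.5%, beside 4.75% of all genes). Their median was 0.45, and it turned to -0.07 without both replicate 1 libraries. Wnt2, a hepatic angiocrine signal, had an FPKM of 14.3, 1.68 and 19.4 in liver and 17.0, 149 and 0 in lung cultures, and 1020 to 1261 in LSECs. Rspo3 was 39.6, 16.2 and 24.5 in liver and 48.0, 6.96 and 0 in lung cultures, and Hgf was 112 in Akt-LEC 1 and between 0 and 9.85 in the other cultures. Angpt2 had 2239, 3622 and 8133 in liver and 2665, 370 and 33.5 in lung cultures, and overlapped only through Akt-LEC 1. Of 44 matrix genes, 0 lay apart in either direction and the median was -0.33, or -0.20 without both replicate 1 libraries. Of 24 genes of leukocyte adhesion and chemokines, Jam2 lay higher in each lung culture and Ccl7 in each liver culture, each 4.17%, near the 2.93% and 4.75% of all genes. Jam2 had 54.0 in Akt-liver EC 1 and 54.6 in Akt-LEC 1, so that its separation rests on a small gap. The median was 0.34, and 0.84 without both replicate 1 libraries.

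Of 34 cell cycle genes, 7 lay higher in each lung culture (Mki67, Ccnb1, Ccnb2, Aurkb, Bub1, Cdc20 and Cdkn2c) and 2 in each liver culture (Ccnd2 and Cdkn2b), which are 20.6% and 5.88% beside 2.93% and 4.75% of all genes. None was called by limma, and at an unadjusted p under 0.05 there was 1 towards lung and 3 towards liver. The median was 0.51 with and without both replicate 1 libraries. Mki67, a protein of dividing cells, had an FPKM of 90.9, 30.4 and 57.1 in liver and 175, 102 and 115 in lung cultures (log2 fold change 1.21, standard error 0.62, limma adjusted p = 0.995). Cdkn2c, which inhibits Cdk4 and Cdk6, had 46.9, 15.9 and 41.0 in liver and 111, 138 and 136 in lung cultures. Cdkn2b, an inhibitor of the same kinases, had 155, 518 and 216 in liver and 92.0, 37.1 and 50.1 in lung cultures. Of 25 genes of the Akt pathway, 0 lay apart in either direction, the median was -0.09 (-0.24 without both replicate 1 libraries) and the values lay between -1.33 and 0.66.

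**Figure D5:**
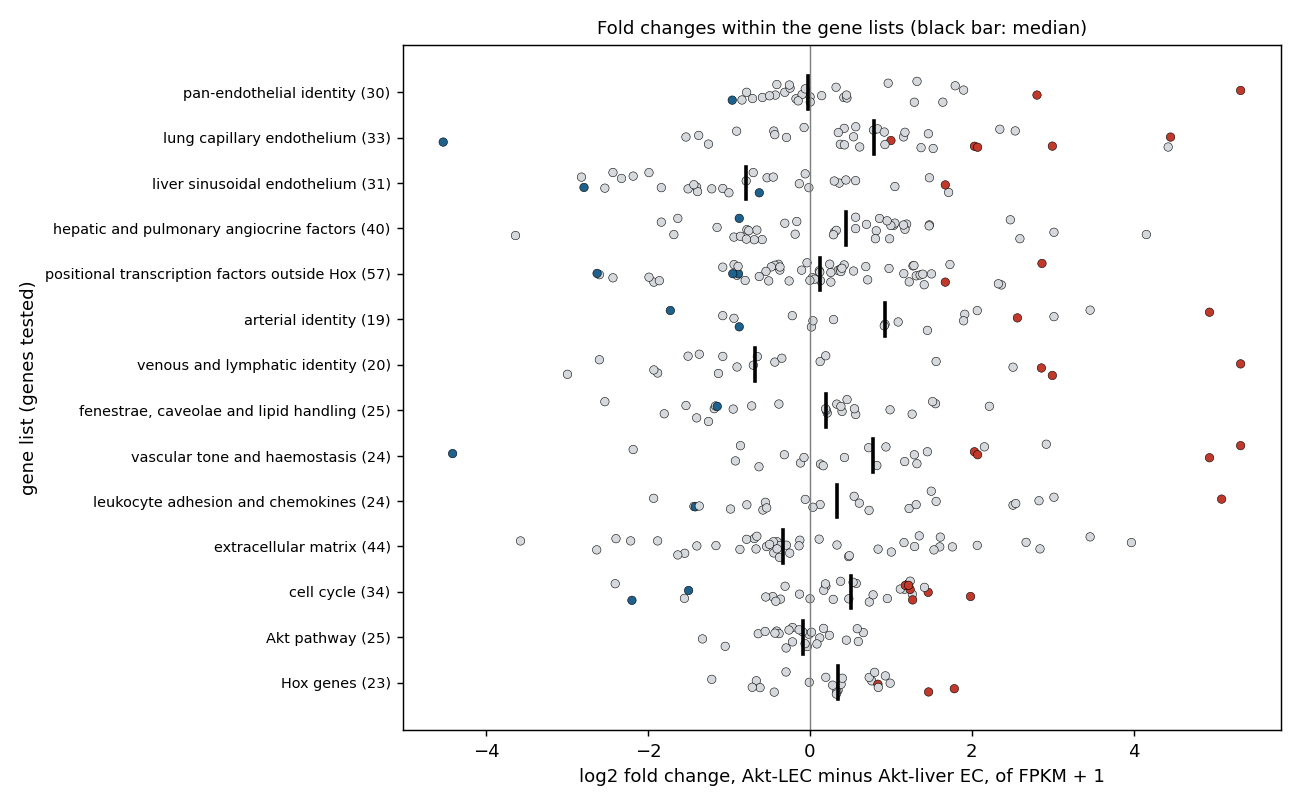
log2 fold change of FPKM + 1 from Akt-liver ECs to Akt-LECs for each tested gene of 14 lists, with the number of genes in brackets and a bar at the median. Red and blue points are genes whose 3 lung or 3 liver cultures lay above all of the other organ; medians range from -0.79 for liver sinusoidal to 0.93 for arterial genes and 0 genes of these lists were called.

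The last comparison asked whether liver cultures stayed nearer to uncultured liver ECs than lung cultures did. The mean distance to the LSEC libraries was 0.247, 0.280 and 0.299 for Akt-liver EC 1, 2 and 3 and 0.287, 0.255 and 0.274 for Akt-LEC 1, 2 and 3. The group means were 0.275 ± 0.0262 (SD, n = 3) and 0.272 ± 0.0158 (SD, n = 3), which differed by -0.00322 (p = 0.9, exact permutation test, two-sided, smallest possible p 0.1). The nearest culture, Akt-liver EC 1, held leukocyte and macrophage markers (1716 FPKM in sum) and hepatocyte markers (695), and LSECs carried 17063 to 27377 FPKM of leukocyte and macrophage markers and 4430 to 21382 of hepatocyte markers. Akt-LEC 1 held 1986 FPKM of leukocyte and macrophage markers and 294 of hepatocyte markers, and lay at 0.287, farther than either group mean. The part of these markers in the distances was not tested. Without both replicate 1 libraries the difference was -0.0247, with lung cultures nearer.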

How the data were processed

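RNA of cultured Akt-LECs and Akt-liver ECs and of LSECs was sequenced from polyadenylated RNA with unstranded libraries and paired reads of 51 bases. The authors aligned the reads to mm9 with TopHat and estimated FPKM per RefSeq transcript with Cufflinks, using upper quartile normalization and bias correction; the versions are not given in the sources used here. The deposited FPKM files hold no counts, so the depth of each library is unknown, and the sum of FPKM of the 6 cultures lay between 1728828 and 1946596. A symbol was found for 26934 of 27583 transcripts, and transcripts of a symbol were summed to 22282 genes. Genes whose FPKM averaged at least 1 over the 6 cultures were tested on log2(FPKM + 1) with limma 3.58.1 in R 4.3.3, in 1 model of the 24 libraries and 8 groups with a trend in the prior variance and Benjamini-Hochberg adjustment over all genes tested. The script was tested on simulated data. Distances were compared with an exact permutation test of the library labels.

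The study describes its libraries as isolates, and replicates of an organ differ in sex-linked transcripts, so they are not all repeats of 1 isolate. Whether each came from its own animal is not given in the sources used here. The p-values of the main fit rest on a spread between libraries that is pooled over all 8 groups, not on that of the 6 cultures alone. The standard error in the main fit and in that of the 6 was 0.83 and 0.19 for Ramp3, and 0.53 and 0.85 for Nr5a2. Of 276 pairs of libraries, 0 held identical values. Deviations from the group means of libraries with the same number correlated at 0.55, 0.35 and -0.10, so the numbers were not taken to pair the libraries.

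The genes and gene lists were chosen with earlier results of these data known. Named were called genes, the defining genes of each list whatever their values and, chosen after their values were seen, genes with an adjusted p below 0.1, the 10 largest fold changes in each direction among genes without overlap, members of lists without overlap and a few further members. The GATA motif was also chosen after the values were known. Alternatives were other pseudocounts and filters, scaling, transcripts kept apart, a fit of the 6 libraries, replicate blocks, the criterion of the study's methods and each library left out. A block for the replicate 1 libraries, leaving both out and a term for Ddx3y were chosen after seeing the data.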

Additional observations from a re-analysis of the deposited data

How the results depend on the processing

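The number of genes called higher in lung (0) and in liver (2) depended on the setting. The counts for liver were 6 without a filter, 0 at a mean FPKM of at least 10 and 0 in the fit of the 6 libraries, which called 1 gene for lung. With each library left out in turn, the counts ranged from 0 to 17 for lung and from 0 to 21 for liver. They were highest without Akt-liver EC 1 (17 and 21) and Akt-LEC 1 (4 and 12), the liver count was 1 without Akt-liver EC 2, and it was 0 without Akt-liver EC 3, Akt-LEC 2 or Akt-LEC 3. With the replicate number as a block, the counts were 1 and 8 in the fit of 24 libraries and 0 and 0 in the fit of the 6. Whether the numbers pair the libraries is not known. The criterion of the study's methods, without adjustment, gave 26 and 60. Of the alternatives chosen after seeing the data, a block for both replicate 1 libraries gave 1 and 7, leaving both out gave 13 and 28, and a term for Ddx3y gave 0 and 1. Genes without overlap numbered 649 to 1510 for lung and 1017 to 1753 for liver with 1 library left out, the most for lung without Akt-liver EC 1 and for liver without Akt-LEC 1, and 2250 and 2744 without both replicate 1 libraries, since fewer libraries separate more easily. Nr5a2 lost its call without Akt-liver EC 3, Akt-LEC 2 or Akt-LEC 3 (limma adjusted p = 0.208, 0.153 and 0.21), at a pseudocount of 0.1 (0.445) and at a mean FPKM of at least 10 (0.148), and Rec114 without these or Akt-liver EC 2 (0.115, 0.147, 0.168 and 0.0555) and at a pseudocount of 10 (0.115). The difference of distances between and within organs ranged from -0.02411 to 0.00573 with 1 library left out and turned positive without Akt-liver EC 1 (0.00092) or Akt-LEC 1 (0.00573), with the replicate block (0.00604) and without both (0.02716). That of distances to LSECs ranged from -0.01732 to 0.00865, and turned positive without Akt-liver EC 3 (0.00865) or Akt-LEC 2 (0.00511) and at a pseudocount of 10 (0.00125). With the replicate block it was -0.00322. Except where fewer libraries were compared, the cause was not tested. For named genes, 927 values kept their side of the threshold for a call, 34 passed it and 15 lost it. All 15 belonged to Nr5a2 or Rec114, the only genes called in the main fit. Direction was not always kept. Without both replicate 1 libraries the log2 fold change of Foxf1 went from 0.38 to -0.82 and that of Hgf from 1.04 to -0.14. Depth is unknown, so the counting error of low FPKM values cannot be given.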

Other observations

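The cultures of both organs held Hox transcripts that LSECs did not. Of 39 Hox genes, 19 were above 1 FPKM in all 6 cultures, and 7 of these (Hoxa6, Hoxa7, Hoxd3, Hoxd4, Hoxd8, Hoxd9 and Hoxd10) were listed at 0 in the 3 LSEC libraries. Hoxd8 had an FPKM of 54.7, 226 and 341 in Akt-liver ECs and 82.5, 301 and 336 in Akt-LECs. Foxf1 was between 12.9 and 174 in the cultures and listed at 0, 0 and 2.96 in LSECs. LSECs differ from the cultures in culture, Akt and purification at once, and these cannot be told apart.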
